A study of Homo sapiens with 59 samples.

Results

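The Rag GTPases, folliculin and the transcription factors TFEB, TFE3 and MITF were followed at the RNA level in A549, a human lung carcinoma cell line, after 24 h with 70% ethanol extracts of 8 herbal medicines or with vehicle. The 10 genes are RRAGA, RRAGB, RRAGC, RRAGD, FLCN, FNIP1, FNIP2, TFEB, TFE3 and MITF, found by symbol among the 60675 gene rows of the deposited count table. All 10 passed the filter on low counts that left 18568 genes for testing. The genes were chosen by name with their levels in these same libraries already known, so the calls and adjusted p-values given here describe these libraries and are no independent support.

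The extracts were Bupleuri Radix (Bupleurum root) at 7.6, 38 and 190 µg/mL with 3 libraries a dose, Aconiti Lateralis Radix Preparata (processed aconite root) at 20, 100 and 500 µg/mL with 3, 2 and 3 libraries, and Yijung-tang (a formula of several herbs) at 20, 100 and 500 µg/mL with 2 libraries a dose. Coptidis Rhizoma (Coptis rhizome) was given at 4.4, 22 and 110 µg/mL and Zizyphi Fructus (jujube) at 20, 100 and 500 µg/mL, each with 2 libraries a dose. Citri Unshius Pericarpium (mandarin peel) and Cimicifugae Rhizoma (Cimicifuga rhizome) were given at 20, 100 and 500 µg/mL with 3 libraries a dose. Banhasasim-tang (another formula of several herbs) was given at 20, 100 and 500 µg/mL with 1 library a dose, and the vehicle group, DMSO, had 3 libraries. The 3 doses of each extract are called low, medium and high.

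Rag GTPases sit on the lysosome as pairs, RRAGA or RRAGB with RRAGC or RRAGD, and hold the growth kinase complex mTORC1 there when amino acids are plentiful. Folliculin, encoded by FLCN, works with FNIP1 or FNIP2 as the activator of GTP hydrolysis by RRAGC and RRAGD. TFEB, TFE3 and MITF are related transcription factors that active Rag GTPases deliver to mTORC1 for phosphorylation, which keeps TFEB and TFE3 in the cytoplasm; on starvation or lysosome damage they enter the nucleus and switch on lysosome and autophagy genes, and RRAGD and FLCN are themselves known targets. RNA levels measure neither the activity nor the location of these proteins.

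The 59 libraries held 17214755 to 39751161 expected counts each. Levels are given in CPM after TMM scaling, which corrects library sizes for differences in composition. Log2 fold changes, standard errors and adjusted p-values come from edgeR's quasi-likelihood test over all 18568 genes, and a gene is called at a Benjamini-Hochberg adjusted p below 0.05. In 4 libraries the first principal component, which carried 18.2% of the variance, lay at 41.02 to 107, against -18.03 to 15.51 in the other 55: Citri Unshius Pericarpium high and medium replicate 3, and Cimicifugae Rhizoma medium and low replicate 2. KRT8 and KRT18, keratins of epithelial cells, reached at least 1956 and 1584 CPM in each library, EPCAM lay between 2.41 and 9.32 CPM and CDH1 between 5.22 and 37.6 CPM. Of 7 markers of other cell types, PTPRC, PECAM1, VWF and ALB had at most 5 counts in any library, while COL1A1, ACTA2 and CD68 were detected throughout. The sample descriptions give the 4 pairs of extracts different leading numbers, 11 to 14, and the vehicle a code of its own, D1. The labels do not explain these codes, which are read here as library sets. On that reading, a difference from vehicle that both extracts of a set show cannot be told apart from one between the sets. All comparisons with vehicle share the same 3 vehicle libraries. In bulk libraries a change in every cell and a change in some of the cells cannot be told apart.

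Per kilobase of merged exon, RRAGA had the highest level of the 10 genes in vehicle libraries and RRAGD the lowest. RRAGA stood at 44.2 ± 2.97 CPM per kb (SD, n = 3) and TFE3 at 21.6 ± 0.958, followed by RRAGC at 5.23 ± 0.198, FNIP1 at 3.58 ± 0.198, FLCN at 2.57 ± 0.0349, RRAGB at 2.20 ± 0.159 and MITF at 1.74 ± 0.105. FNIP2 had 0.866 ± 0.0147, TFEB 0.564 ± 0.0627 and RRAGD 0.381 ± 0.00946 CPM per kb. Each neighbouring pair in this order lay farther apart than the sum of its SDs. The SDs measure only the spread between libraries, not whether the merged length of all annotated exons matches the transcripts present. RRAGD and TFEB rest on few reads, 32 to 195 counts per library for RRAGD and 51 to 160 for TFEB, against 1543 to 4250 for TFE3.

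TFEB and its relatives bind E-boxes, of which the core is CACGTG. RefSeq promoter windows on GRCh38.p14, 250 bases before to 50 after each annotated start, covered 8 of the 10 genes in 13 windows. RRAGA and RRAGD were not among them. Among the 13 windows of the 8 genes, CACGTG, which reads the same on both strands, was present in 3, 1 each for RRAGC, FNIP1 and RRAGB. It was present in 7.26% of all 35116 windows. Its longer form TCACGTGA, which contains the core, was found in the RRAGB window and in 0.98% of all windows. CATGTG, searched on both strands, was found in 1 window of FNIP2 and in 11.1% of all, and TGATGCAA in no window of the 8 genes and in 0.866% of all. The 250 bases before the start are shown for RRAGC, FNIP1 and FLCN, which were all called higher under Bupleuri Radix high, and for RRAGB, which holds the motif and was not called. FNIP2, also called higher there, holds no CACGTG in its windows and is not shown. Capitals mark CACGTG.

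RRAGC (chr1:38859773-38860022, minus strand): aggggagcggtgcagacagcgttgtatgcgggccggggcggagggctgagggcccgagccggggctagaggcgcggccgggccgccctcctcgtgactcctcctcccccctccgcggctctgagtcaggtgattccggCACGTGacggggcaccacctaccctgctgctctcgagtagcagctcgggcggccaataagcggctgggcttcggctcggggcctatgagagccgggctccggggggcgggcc

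FNIP1 (chr5:131797018-131797267, minus strand): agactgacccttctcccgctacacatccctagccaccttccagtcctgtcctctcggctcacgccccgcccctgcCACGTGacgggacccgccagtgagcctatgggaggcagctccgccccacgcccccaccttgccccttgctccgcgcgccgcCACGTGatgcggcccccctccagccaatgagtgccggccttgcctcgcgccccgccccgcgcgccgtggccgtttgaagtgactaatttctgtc

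FLCN (chr17:17237169-17237418, minus strand): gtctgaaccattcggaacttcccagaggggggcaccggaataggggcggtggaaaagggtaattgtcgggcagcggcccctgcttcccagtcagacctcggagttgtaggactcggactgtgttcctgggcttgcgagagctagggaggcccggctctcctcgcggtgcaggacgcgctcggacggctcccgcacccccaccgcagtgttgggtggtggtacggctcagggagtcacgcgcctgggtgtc

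RRAGB (chrX:55717499-55717748, plus strand): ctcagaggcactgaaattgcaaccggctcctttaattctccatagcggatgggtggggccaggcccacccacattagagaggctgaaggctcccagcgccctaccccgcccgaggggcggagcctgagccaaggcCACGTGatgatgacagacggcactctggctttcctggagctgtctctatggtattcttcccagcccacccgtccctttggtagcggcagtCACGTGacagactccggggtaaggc

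RRAGC holds the core at 1 place, FNIP1 at 2 places, and RRAGB at 2 places here with the other of its 3 matches just past the start. FLCN holds none in this window. A match describes the letters only.

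RRAGD, a less abundant partner in the Rag pair and a known TFEB and TFE3 target (chr6:89364636-89412270, minus strand, GENCODE 29 on GRCh38), had group means from 1.76 to 7.04 CPM. Of the 10 genes it had the largest ratio of the highest to the lowest group mean, 4.01. It had 7.37, 6.56 and 7.18 CPM under Bupleuri Radix high, against 1.92, 1.99 and 1.89 CPM in vehicle. The groups were far apart, and RRAGD rose by 1.86 ± 0.18 on the log2 scale (SE), 3.63-fold, with an edgeR adjusted p of 3.38e-09. Under Aconiti Lateralis Radix Preparata medium it had 5.39 and 6.37 CPM, a rise of 1.60 ± 0.20 (adjusted p = 7.15e-08), and under the high dose of that extract 3.10, 2.98 and 3.10 CPM, a smaller rise of 0.66 ± 0.19 (adjusted p = 0.0305). Yijung-tang high gave 3.49 and 4.38 CPM, a rise of 1.02 ± 0.20 (adjusted p = 0.0031). In the order of group means, Bupleuri Radix high and Aconiti Lateralis Radix Preparata medium lay above Yijung-tang high without overlap of libraries, then came Aconiti Lateralis Radix Preparata high. Citri Unshius Pericarpium medium came next at 2.79 ± 1.22 CPM (SD, n = 3) on the strength of 1 library at 4.16 CPM; its others had 2.38 and 1.83 CPM, on either side of the vehicle libraries.

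The RRAGD call under Aconiti Lateralis Radix Preparata high was lost whichever of its 6 libraries was left out, with adjusted p-values of 0.0686 to 0.0965. Under Yijung-tang high RRAGD was no longer called without replicate 2, the higher library (log2 fold change 0.86, adjusted p = 0.126). The calls under Bupleuri Radix high and Aconiti Lateralis Radix Preparata medium held without any single library.

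**Figure D1:**
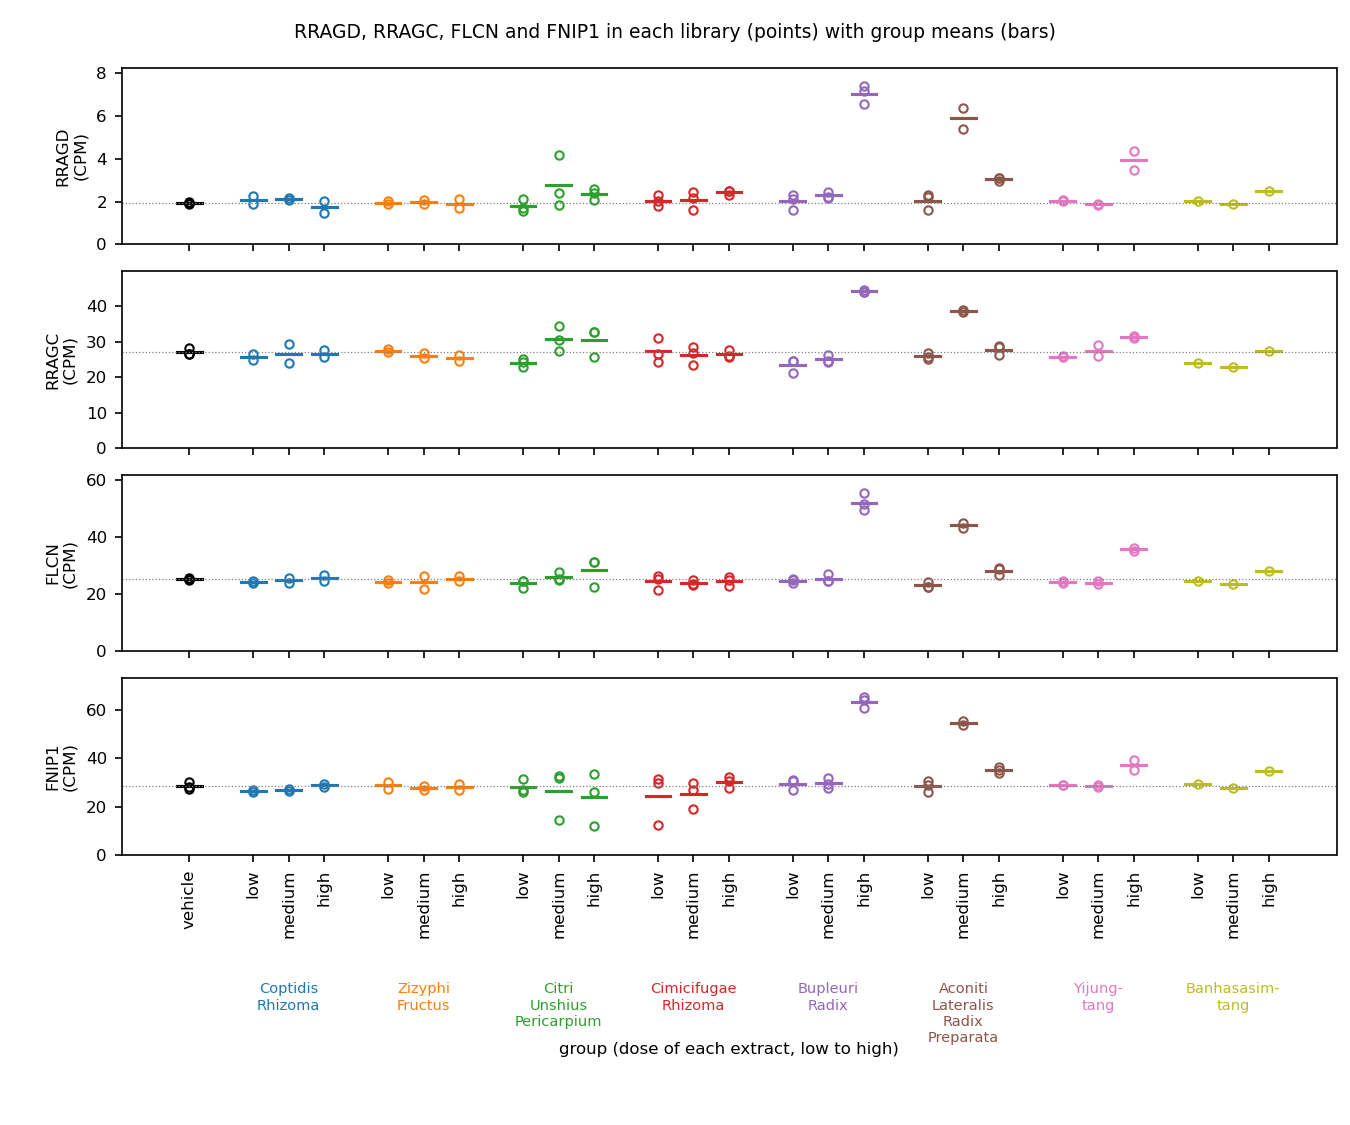
Levels of RRAGD, RRAGC, FLCN and FNIP1 in CPM (vertical axes) in each library, with groups along the horizontal axis from vehicle and then low to high dose of each extract; circles are libraries, bars group means and the dotted line the vehicle mean. RRAGD reached 6.56 to 7.37 CPM under Bupleuri Radix high and 5.39 to 6.37 CPM under Aconiti Lateralis Radix Preparata medium, above the vehicle libraries at 1.89 to 1.99 CPM, and FNIP1 was low in Citri Unshius Pericarpium high replicate 3 at 12.0 CPM.

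RRAGC, the more abundant partner at the same place in the Rag pair (chr1:38838198-38859823, minus strand), rose in 2 of the 4 groups where RRAGD rose, with smaller fold changes. It had 44.6, 44.0 and 44.1 CPM under Bupleuri Radix high, against 26.5, 26.4 and 28.2 CPM in vehicle. The libraries did not overlap, and RRAGC rose by 0.71 ± 0.09 on the log2 scale (adjusted p = 1.27e-06). Under Aconiti Lateralis Radix Preparata medium it had 38.8 and 38.4 CPM and rose by 0.52 ± 0.10 (adjusted p = 0.000199). The high dose of the same extract, at 28.5, 26.1 and 28.8 CPM, overlapped vehicle, and Yijung-tang high, at 31.7 and 31.0 CPM, was higher than all vehicle libraries by 0.21 ± 0.10 without being called (adjusted p = 0.434). RRAGC shares 21.4% of its 100-base transcript stretches with the overlapping gene AL139260.2, which drew 12 counts over all libraries.

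RRAGA (chr9:19049395-19050983, plus strand) and RRAGB (chrX:55717739-55758774, plus strand), the other side of the Rag pair, were called in none of the 21 comparisons of a dose with vehicle. RRAGA had group means from 59.2 to 76.5 CPM and log2 fold changes from -0.25 to 0.12. Over the doses of Coptidis Rhizoma it had 59.1 to 62.7 CPM, below each vehicle library at 65.5 to 74.9 CPM. A fit of only that extract and vehicle called it lower at each dose. That fit called 2267, 4340 and 7157 genes in all from the low to the high dose, in place of 83, 607 and 2332. Zizyphi Fructus medium and low, of the same library set, also lay below vehicle, with RRAGA at 57.4 to 62.6 and 57.6 to 61.7 CPM. RRAGB had group means from 4.52 to 6.71 CPM and log2 fold changes from -0.30 to 0.17. Under Bupleuri Radix high, where RRAGC and RRAGD rose, RRAGA differed from vehicle by -0.03 ± 0.11 and RRAGB by 0.11 ± 0.10. RRAGA and RRAGB share no 100-base transcript stretch with each other or with another gene.

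FLCN, the gene of folliculin (chr17:17212212-17237188, minus strand), had 55.2, 49.3 and 51.5 CPM under Bupleuri Radix high, against 25.2, 25.5 and 24.8 CPM in vehicle. It rose 2.06-fold, by 1.05 ± 0.09 on the log2 scale (adjusted p = 1.08e-10), the smallest adjusted p of the 10 genes in that comparison. It had 43.2 and 44.9 CPM under Aconiti Lateralis Radix Preparata medium, a rise of 0.81 ± 0.10 (adjusted p = 4.08e-08), and 35.2 and 36.3 CPM under Yijung-tang high, a rise of 0.50 ± 0.10 (adjusted p = 0.0019). Aconiti Lateralis Radix Preparata high, at 28.8, 26.8 and 29.1 CPM, lay above each vehicle library by a smaller margin and was not called (0.16 ± 0.09, adjusted p = 0.401). Without Yijung-tang high replicate 2 the adjusted p of FLCN in that comparison was 0.0533, at a log2 fold change of 0.49.

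FLCN overlaps other genes, which bears on its counts. MPRIP, on the opposite strand, drew 773450 counts over all libraries against 42226 for FLCN, and whether counting used the strand was not recorded in the sources used here. The log2 fold change of MPRIP by edgeR was -0.33 ± 0.10 under Bupleuri Radix high (adjusted p = 0.0658) and -0.44 ± 0.12 under Aconiti Lateralis Radix Preparata medium (adjusted p = 0.0056). Under Yijung-tang high it was -0.34 ± 0.12 (adjusted p = 0.15). AC055811.2, on the same strand, shares 9.81% of the FLCN stretches and drew 1450 counts, 3.43% of the FLCN total. Its log2 fold change by edgeR under Bupleuri Radix high was 2.30 ± 0.99 (adjusted p = 0.249). It was 2.12 ± 1.065 under Aconiti Lateralis Radix Preparata medium (adjusted p = 0.188) and 1.63 ± 1.11 under Yijung-tang high (adjusted p = 0.686). The part of either gene in the FLCN differences was not tested.

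FNIP1, the first of the folliculin partners (chr5:131641714-131797063, minus strand), had 64.1, 65.2 and 60.7 CPM under Bupleuri Radix high, against 30.1, 27.1 and 28.1 CPM in vehicle. It rose 2.23-fold, by 1.16 ± 0.24 on the log2 scale (adjusted p = 0.0025). Under Aconiti Lateralis Radix Preparata medium it had 53.6 and 55.1 CPM and rose by 0.94 ± 0.26 (adjusted p = 0.0086), a call lost without replicate 2 of that group (adjusted p = 0.0638). The standard error of FNIP1 was larger than that of FLCN (0.24 against 0.09). FNIP1 had its lowest levels in the 4 libraries that stand apart, 12.0 CPM in Citri Unshius Pericarpium high replicate 3, 14.3 CPM in its medium replicate 3, 12.2 CPM in Cimicifugae Rhizoma low replicate 2 and 19.0 CPM in its medium replicate 2. Fitted without those 4, FNIP1 was also called higher under Aconiti Lateralis Radix Preparata high (0.30, adjusted p = 0.0064; 35.04, 33.73 and 36.37 CPM) and Yijung-tang high (0.39, adjusted p = 0.0032; 34.999 and 39.27 CPM), where all libraries lay above vehicle.

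FNIP2, the other partner (chr4:158769138-158908049, plus strand), had 13.6, 12.6 and 12.1 CPM under Bupleuri Radix high, against 9.59, 9.31 and 9.32 CPM in vehicle, and was called in no other dose comparison. The rise was 0.44 ± 0.12 on the log2 scale (adjusted p = 0.0384). It lost the call without replicate 1 or 2 of Bupleuri Radix high (adjusted p = 0.172 and 0.0972) and without vehicle replicate 1, 2 or 3 (adjusted p = 0.0929, 0.123 and 0.117). Under Aconiti Lateralis Radix Preparata medium, where FNIP1 and FLCN rose, FNIP2 had 8.34 and 10.1 CPM and overlapped vehicle (-0.03 ± 0.14).

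TFE3, the most abundant of the 3 transcription factor genes here (chrX:49028726-49043486, minus strand), changed little, and its group means spanned 91.6 to 115 CPM. It had 110 and 111 CPM under Aconiti Lateralis Radix Preparata medium, against 94.3, 87.7 and 95.2 CPM in vehicle, a rise of 0.26 ± 0.07 on the log2 scale (adjusted p = 0.0092). It rose by 0.21 ± 0.07 under the high dose of that extract, with 108, 109 and 104 CPM (adjusted p = 0.0497), and by 0.27 ± 0.07 under Coptidis Rhizoma high, with 110 and 113 CPM (adjusted p = 0.0087). Under Bupleuri Radix high, where RRAGD and FLCN rose most, TFE3 had 96.8, 100.4 and 97.6 CPM, 0.09 ± 0.07 above vehicle (adjusted p = 0.611). Each TFE3 call was lost without some single library. Without Aconiti Lateralis Radix Preparata medium replicate 2 the adjusted p was 0.058. Without Coptidis Rhizoma high replicate 3 it was 0.0654. Without any of the 6 libraries behind the call at the high dose of that root it was 0.0566 to 0.197. Mitochondrial ribosomal RNA made up 6.09% to 6.42% of the counts under Coptidis Rhizoma high, against 2.24% to 2.43% in vehicle, and its part in the TFE3 difference was not tested.

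MITF, the family member best known for its role in melanocytes (chr3:69739435-69968337, plus strand), had 16.6 and 17.4 CPM under Aconiti Lateralis Radix Preparata medium, against 13.3, 12.3 and 11.8 CPM in vehicle. It rose by 0.44 ± 0.12 on the log2 scale (adjusted p = 0.0082), and lost the call without replicate 2 of that group (adjusted p = 0.0809). Under Bupleuri Radix high it pointed the other way, with 9.92, 10.1 and 10.4 CPM, below each vehicle library at a log2 fold change of -0.30 ± 0.11 and not called (adjusted p = 0.16); fitted without the 4 libraries that stand apart it was called lower (-0.30, adjusted p = 0.006). Of 6 melanocyte genes regulated by MITF, TYR had 0 counts in all libraries, DCT, TYRP1 and TRPM1 had at most 3, and MLANA and PMEL, at most at 1.23 CPM, were called in no comparison with vehicle.

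TFEB itself (chr6:41683978-41736259, minus strand) had 2.11 and 1.68 CPM under Aconiti Lateralis Radix Preparata medium, against 3.52, 3.21 and 2.82 CPM in vehicle. Both libraries lay below vehicle, at -0.75 ± 0.27 on the log2 scale, and the adjusted p of 0.0532 just missed the threshold. TFEB was also the gene that the libraries standing apart moved most upward, with 7.84 CPM in Citri Unshius Pericarpium high replicate 3 and 6.56 CPM in Cimicifugae Rhizoma low replicate 2. Fitted without those 4 libraries, TFEB was called lower under Aconiti Lateralis Radix Preparata medium (-0.74, adjusted p = 0.000434), and its difference under Citri Unshius Pericarpium high was 0.13 in place of 0.60 (adjusted p = 0.702 in place of 0.103). Under Bupleuri Radix high TFEB had 2.68, 3.24 and 2.50 CPM and overlapped vehicle (-0.18 ± 0.24).

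**Figure D2:**
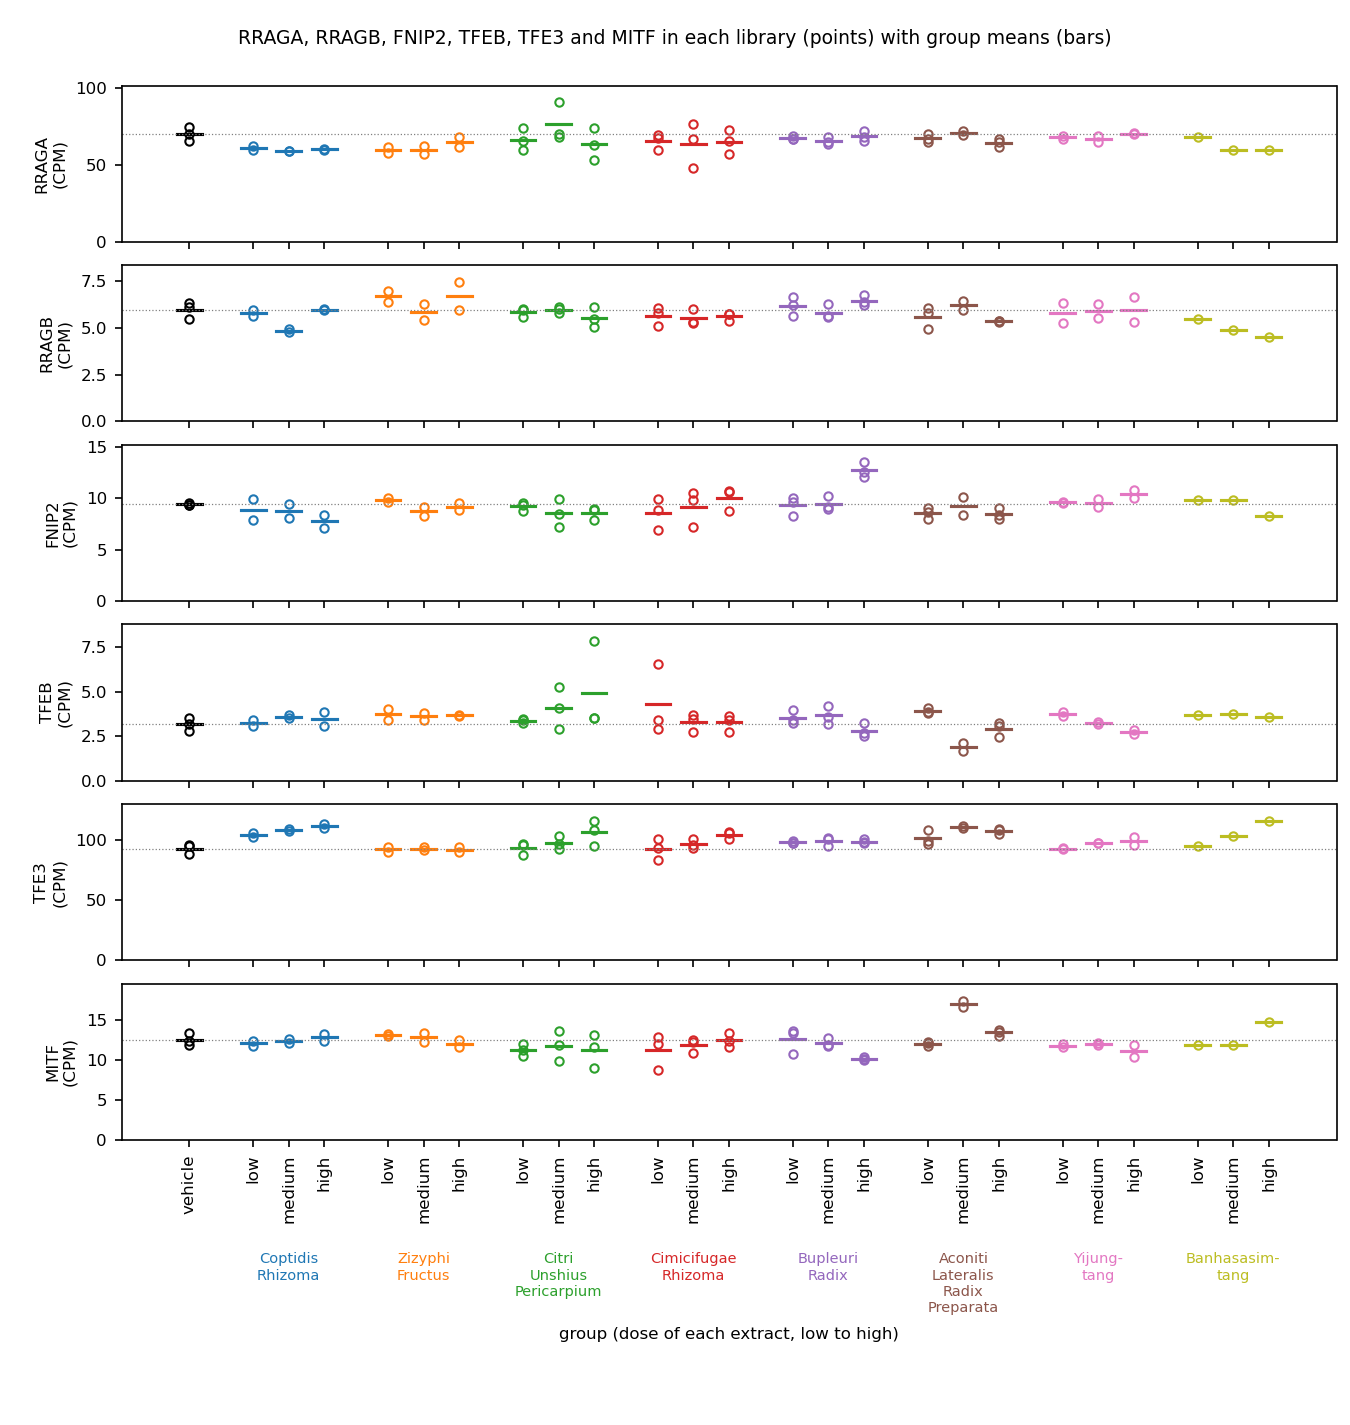
Levels of RRAGA, RRAGB, FNIP2, TFEB, TFE3 and MITF in CPM (vertical axes) in each library, drawn as for RRAGD. FNIP2 stood at 12.1 to 13.6 CPM under Bupleuri Radix high, MITF at 16.6 and 17.4 CPM and TFEB at 2.11 and 1.68 CPM under Aconiti Lateralis Radix Preparata medium, and the highest TFEB value was the 7.84 CPM of Citri Unshius Pericarpium high replicate 3.

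Over the 21 comparisons of a dose with vehicle, 16 of 210 member tests were called, 16 higher and 0 lower, by edgeR. RRAGD accounted for 4 of them, FLCN and TFE3 for 3 each, RRAGC and FNIP1 for 2 each, and FNIP2 and MITF for 1 each. Bupleuri Radix high had 5 of 10 members called, with 3.36% of all tested genes called, and Aconiti Lateralis Radix Preparata medium had 6, with 17.5% of all. Aconiti Lateralis Radix Preparata high had 2 called with 4.65% of all genes, Yijung-tang high 2 with 1.37%, and Coptidis Rhizoma high 1 with 12.6%. Of all genes, 381 were called higher and 243 lower under Bupleuri Radix high, and 1529 and 1724 under Aconiti Lateralis Radix Preparata medium. Higher and lower calls numbered 476 and 388 under Aconiti Lateralis Radix Preparata high, 145 and 109 under Yijung-tang high, and 1191 and 1141 under Coptidis Rhizoma high. The median log2 fold change of the 10 members was 0.28 under Bupleuri Radix high, against 0.0049 over all genes, and 0.35 under Aconiti Lateralis Radix Preparata medium, against -0.0089 over all genes.

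**Figure D3:**
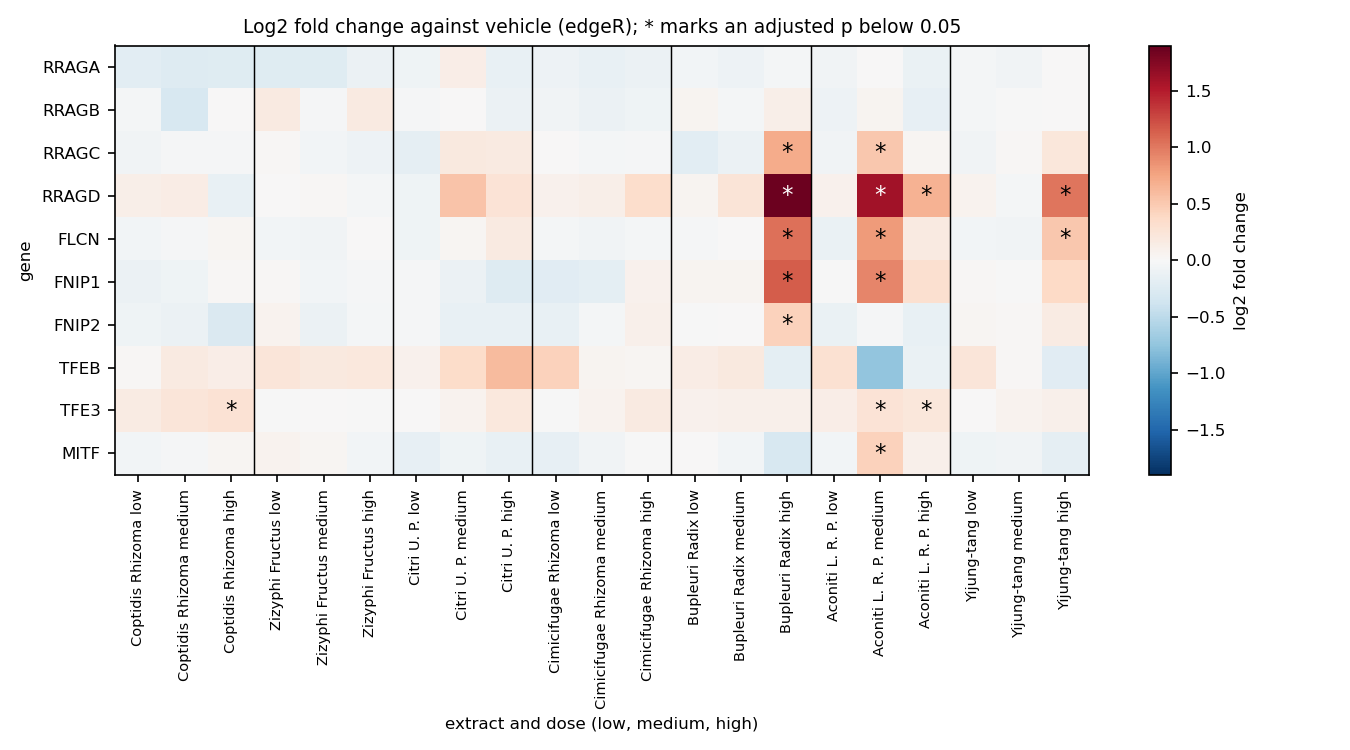
Log2 fold change against vehicle (colour) of the 10 genes (rows) in the 21 dose groups with replicates (columns, low to high dose within each extract); asterisks mark an adjusted p below 0.05. The 16 asterisks fall in 5 columns, and RRAGD under Bupleuri Radix high is the darkest cell at 1.86.

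In the remaining dose groups edgeR called 0 members. For Coptidis Rhizoma low, with 0.447% of all genes called, 1 member, TFE3, had an unadjusted p below 0.05 and DESeq2 called 0. For its medium dose, with 3.27%, 2 members had such a p (RRAGB and TFE3) and DESeq2 called 1, TFE3. Of all 18568 genes, 1287 had such a p at the low and 2524 at the medium dose. TFE3 lay above each vehicle library at all 3 doses of Coptidis Rhizoma, by 0.16 at the low, 0.22 at the medium and 0.27 at the high dose on the log2 scale. Zizyphi Fructus had 0% of all genes called at each dose, and 0 members with an unadjusted p below 0.05 or a DESeq2 call. Such a p was held by 460, 497 and 439 of all genes from its low to its high dose.

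Citri Unshius Pericarpium low, with 0.00539% of all genes called, had 0 members with an unadjusted p below 0.05 and 0 DESeq2 calls. The medium dose, with 0%, had 2 such members (RRAGC and RRAGD) and 0 DESeq2 calls. The high dose, with 4.42%, had 2 (TFEB and TFE3), and DESeq2 called 1 member, TFE3. Of all 18568 genes, 660, 2565 and 4764 had an unadjusted p below 0.05 from the low to the high dose. Cimicifugae Rhizoma had 0%, 0.0269% and 0.377% of all genes called from the low to the high dose, with 0 DESeq2 calls of members each. An unadjusted p below 0.05 was held by 0, 0 and 1 members, the last being TFE3, and by 1263, 1261 and 1365 of all genes. The other groups were Bupleuri Radix low (0% of all genes called) and medium (0.00539%), Aconiti Lateralis Radix Preparata low (0%), and Yijung-tang low (0%) and medium (0.0108%). DESeq2 called 0 members in these, and 1 member in all had an unadjusted p below 0.05, RRAGC under Bupleuri Radix low. Such a p was held by 1367 of all genes under Bupleuri Radix low and 1320 under its medium dose. It was held by 1214 under Aconiti Lateralis Radix Preparata low, and by 743 and 652 under Yijung-tang low and medium.

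The high against the low dose compares libraries of 1 set and does not use the vehicle. For Bupleuri Radix, 5 of 10 members were called higher at 190 than at 7.6 µg/mL, with 1.58% of all genes called: RRAGD by 1.81 ± 0.18 on the log2 scale (adjusted p = 7.46e-09), FNIP1 by 1.10 ± 0.24 (adjusted p = 0.0055), FLCN by 1.07 ± 0.09 (adjusted p = 5.89e-11), RRAGC by 0.91 ± 0.09 (adjusted p = 7.46e-09) and FNIP2 by 0.45 ± 0.12 (adjusted p = 0.049). These are close in size to the differences from vehicle, except for RRAGC, which differed from vehicle by 0.71. RRAGC averaged 23.4 ± 1.94 CPM at the low dose and 27.0 ± 1.02 CPM in vehicle (SD, n = 3 each). The steps below were small: RRAGD averaged 2.01 ± 0.34, 2.29 ± 0.15 and 7.04 ± 0.42 CPM from the low to the high dose (SD, n = 3 each), and FLCN 24.7 ± 0.72, 25.4 ± 1.42 and 52.0 ± 2.97 CPM. Without Bupleuri Radix low replicate 2 the count was 3, FNIP1 having an adjusted p of 0.0533 and FNIP2 of 0.329; FNIP2 lost its call without any of the 6 libraries.

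For Yijung-tang, RRAGD (0.95 ± 0.22, adjusted p = 0.0313) and FLCN (0.56 ± 0.11, adjusted p = 0.0026) were called higher at 500 than at 20 µg/mL, with 0.431% of all genes called. With 2 libraries a dose, RRAGD lost the call without any of the 4 libraries (adjusted p = 0.0579 to 0.591), and FLCN without high replicate 2, low replicate 1 or low replicate 2 (adjusted p = 0.0634, 0.0841 and 0.0516). For Citri Unshius Pericarpium, RRAGC alone was called, at 0.33 ± 0.09 (adjusted p = 0.0459) with 3.54% of all genes called; it had 32.9, 25.6 and 32.7 CPM at the high dose against 24.2, 25.2 and 22.7 CPM at the low dose. Without high replicate 3, which stands apart, its adjusted p was 0.387, and without high replicate 1 or low replicate 1, 2 or 3 it was 0.0527 to 0.183. No member was called by edgeR or DESeq2 for Coptidis Rhizoma (2.31% of all genes called), Zizyphi Fructus (0%) or Cimicifugae Rhizoma (0.221%). In these comparisons 0, 0 and 1 members, the last being TFE3, had an unadjusted p below 0.05. So did 2093, 251 and 1592 of all genes.

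For Aconiti Lateralis Radix Preparata, RRAGC, RRAGD and FLCN were higher at the medium than at the high dose. Between 500 and 20 µg/mL edgeR called 0 members, with 3.29% of all genes called, and DESeq2 called FLCN. An edgeR unadjusted p below 0.05 was held by 2 members, RRAGD (0.57 ± 0.18, adjusted p = 0.0871) and FLCN (0.29 ± 0.09, adjusted p = 0.0642). It was held by 2041 of all genes. Over the doses RRAGD averaged 2.05 ± 0.37 CPM at the low dose (SD, n = 3), 5.88 ± 0.69 at the medium dose (n = 2) and 3.06 ± 0.07 at the high dose (n = 3), and FLCN 23.1 ± 0.93, 44.1 ± 1.21 and 28.2 ± 1.28 CPM. In a comparison added after the levels were seen, RRAGD (0.94 ± 0.19, adjusted p = 0.00077), FLCN (0.64 ± 0.10, adjusted p = 1.14e-05) and RRAGC (0.48 ± 0.10, adjusted p = 0.0014) were called higher at 100 than at 500 µg/mL, with 7.78% of all genes called. FNIP1 (0.63 ± 0.26, adjusted p = 0.157), MITF (0.34 ± 0.12, adjusted p = 0.0831) and TFEB (-0.63 ± 0.27, adjusted p = 0.192) were not called. Without the 4 libraries that stand apart all 3 were, with 3723 genes called in all in place of 1445.

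The change from low to high dose differed between both extracts of library set 13. It was larger under Bupleuri Radix than under Aconiti Lateralis Radix Preparata for RRAGD (difference 1.24 ± 0.26 on the log2 scale, adjusted p = 0.012), RRAGC (0.81 ± 0.13, adjusted p = 0.000466) and FLCN (0.79 ± 0.12, adjusted p = 0.000466), with 0.318% of all genes called. RRAGD lost the call without Aconiti Lateralis Radix Preparata low replicate 1 (adjusted p = 0.069), low replicate 2 (adjusted p = 0.0554) or Bupleuri Radix low replicate 3 (adjusted p = 0.0893). FNIP1 differed by 0.80 ± 0.34 and was not called (adjusted p = 0.924), and was called without the 4 libraries that stand apart (0.79, adjusted p = 2.17e-05). Between Coptidis Rhizoma and Zizyphi Fructus, with 0.355% of all genes called, edgeR and DESeq2 called 0 members. There 0 members and 1192 of all genes had an unadjusted p below 0.05. Between Cimicifugae Rhizoma and Citri Unshius Pericarpium, with 7.02% of all genes called, edgeR called 0 members. There 2 members (RRAGC and TFEB) and 5330 of all genes had an unadjusted p below 0.05, and DESeq2 called those 2 members. Without the 4 libraries that stand apart TFEB differed by -0.01 in place of -0.92.

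**Figure D4:**
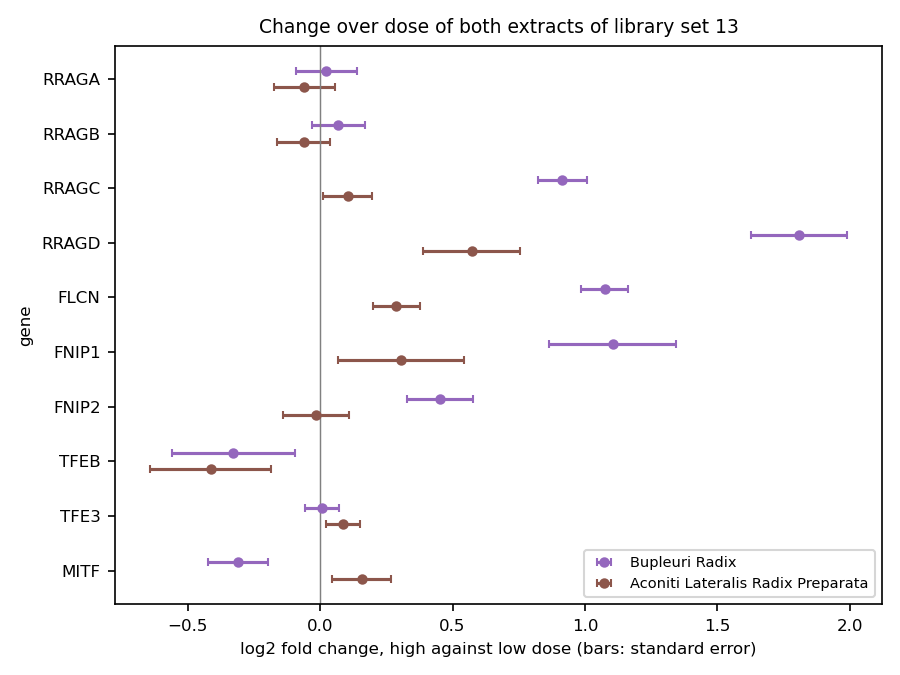
Log2 fold change of the high against the low dose (horizontal axis, points with standard error bars) for the 10 genes (rows) under Bupleuri Radix, above, and Aconiti Lateralis Radix Preparata, below. RRAGD stood at 1.81 under Bupleuri Radix and 0.57 under Aconiti Lateralis Radix Preparata, and RRAGC at 0.91 and 0.10.

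Of 6 genes of Ragulator, the Rag anchor, and the lysosomal amino acid transporter SLC38A9, 7 of the GATOR1 inhibitor and its KICSTOR scaffold, and 5 of GATOR2, 0 were called by edgeR under Bupleuri Radix high, Aconiti Lateralis Radix Preparata medium or Yijung-tang high. Over all genes 3.36%, 17.5% and 1.37% were called in these comparisons, so a count of 0 is near the background in the first and the last. Of 9 genes of mTORC1, RHEB and the TSC complex, TSC1, a brake on RHEB, rose under Bupleuri Radix high (0.48 ± 0.11, adjusted p = 0.007) and Aconiti Lateralis Radix Preparata medium (0.40 ± 0.12, adjusted p = 0.0165), and its partner TBC1D7 under Bupleuri Radix high (0.42 ± 0.12, adjusted p = 0.0438). Both extracts are of 1 library set, so the TSC1 rise cannot be told apart from a difference between sets. Between the high and low dose of Bupleuri Radix, TBC1D7 was called (0.48 ± 0.12) and TSC1 was not, with 1.58% of all genes called. Between the medium and high dose of Aconiti Lateralis Radix Preparata 0 of the 9 were called, with 7.78% of all genes called. Of 4 genes of the calcium route to TFEB, PPP3CA, a catalytic subunit of the phosphatase calcineurin, fell by 0.31 ± 0.06 under Bupleuri Radix high (adjusted p = 0.000993) and by 0.49 ± 0.07 under Aconiti Lateralis Radix Preparata medium (adjusted p = 5.9e-07). It fell by 0.31 ± 0.07 under Coptidis Rhizoma medium and by 0.42 ± 0.07 under its high dose, where RRAGD and FLCN were not called. Under Aconiti Lateralis Radix Preparata high it fell by 0.25 ± 0.06. The part of PPP3CA in the differences of RRAGD and FLCN was not tested.

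Of 7 amino acid sensors, 1 rose and 3 fell under Aconiti Lateralis Radix Preparata medium, where 17.5% of all genes were called. SESN2, a leucine sensor induced by stress, rose by 1.78 ± 0.17 on the log2 scale (adjusted p = 2.79e-10), to 49.9 CPM against 14.5 CPM in vehicle. SESN3, CASTOR2 and SESN1 fell by 1.76 ± 0.37, 1.53 ± 0.26 and 0.54 ± 0.15. Under Bupleuri Radix high 0 of the 7 were called by edgeR, and SESN2 averaged 14.5 CPM there too. Under Aconiti Lateralis Radix Preparata high SESN2 rose by 0.72 ± 0.16.

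Of 3 stress-induced genes that restrain mTORC1 or AKT, TRIB3 was called in more comparisons with vehicle than DDIT4, a restrainer of mTORC1. TRIB3 rose under Aconiti Lateralis Radix Preparata medium by 1.88 ± 0.18, under Yijung-tang high by 1.09 ± 0.18, under Aconiti Lateralis Radix Preparata high by 0.82 ± 0.16, under Bupleuri Radix high by 0.65 ± 0.16 and under Citri Unshius Pericarpium high by 0.54 ± 0.16 (adjusted p = 0.0491). DDIT4 rose by 0.81 ± 0.12 under Aconiti Lateralis Radix Preparata medium. Both rose at each dose of Coptidis Rhizoma, TRIB3 by 1.15, 1.66 and 2.06 and DDIT4 by 0.79, 1.03 and 1.15 from the low to the high dose. Under Coptidis Rhizoma high TRIB3 rose by 2.06 ± 0.18 and SESN2 by 1.97 ± 0.17, and RRAGD stood at 2.02 and 1.49 CPM, against 1.92, 1.99 and 1.89 CPM in vehicle. A link between these genes and RRAGD was not tested.

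Lysosome and autophagy genes known as TFEB and TFE3 targets, a list of 24, were called 11 higher and 0 lower under Bupleuri Radix high, with a median log2 fold change of 0.34 against 0.0049 over all genes, of which 3.36% were called. NEU1, a lysosomal sialidase, rose by 1.44 ± 0.11 (adjusted p = 1.18e-11), to 39.0 ± 0.21 CPM against 14.4 ± 1.21 CPM in vehicle (SD, n = 3 each). SQSTM1, the autophagy receptor p62, rose by 1.03 ± 0.15, the lysosomal peptidase gene TPP1 by 0.82 ± 0.11 and the lysosomal chloride transporter gene CLCN7 by 0.77 ± 0.08. Under Aconiti Lateralis Radix Preparata medium 7 were higher and 2 lower, with a median of -0.0039 against -0.0089 over all genes, of which 17.5% were called. SQSTM1 rose by 1.13 ± 0.17, NEU1 by 0.61 ± 0.12 and UVRAG, an autophagy regulator, by 0.60 ± 0.12. GPNMB fell by 1.56 ± 0.33 at 0.43 CPM against 1.28 CPM in vehicle. Yijung-tang high had 3 higher and 0 lower (WIPI1, NEU1 and CLCN7), with 1.37% of all genes called, and Aconiti Lateralis Radix Preparata high 1 higher and 0 lower (WIPI1, 0.52 ± 0.15), with 4.65%. Citri Unshius Pericarpium high had 3 higher and 0 lower, with 4.42% of all genes called, and Coptidis Rhizoma high 2 higher and 4 lower, with 12.6%. Citri Unshius Pericarpium high includes a library that stands apart, and without those 4 libraries 266 genes in place of 821 were called there. The change from low to high dose was larger under Bupleuri Radix than under Aconiti Lateralis Radix Preparata for 4 of the 24 and smaller for 0, with 0.318% of all genes called, led by NEU1 (1.26 ± 0.16, adjusted p = 6.59e-06) and CLCN7 (0.66 ± 0.11, adjusted p = 0.000658).

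**Figure D5:**
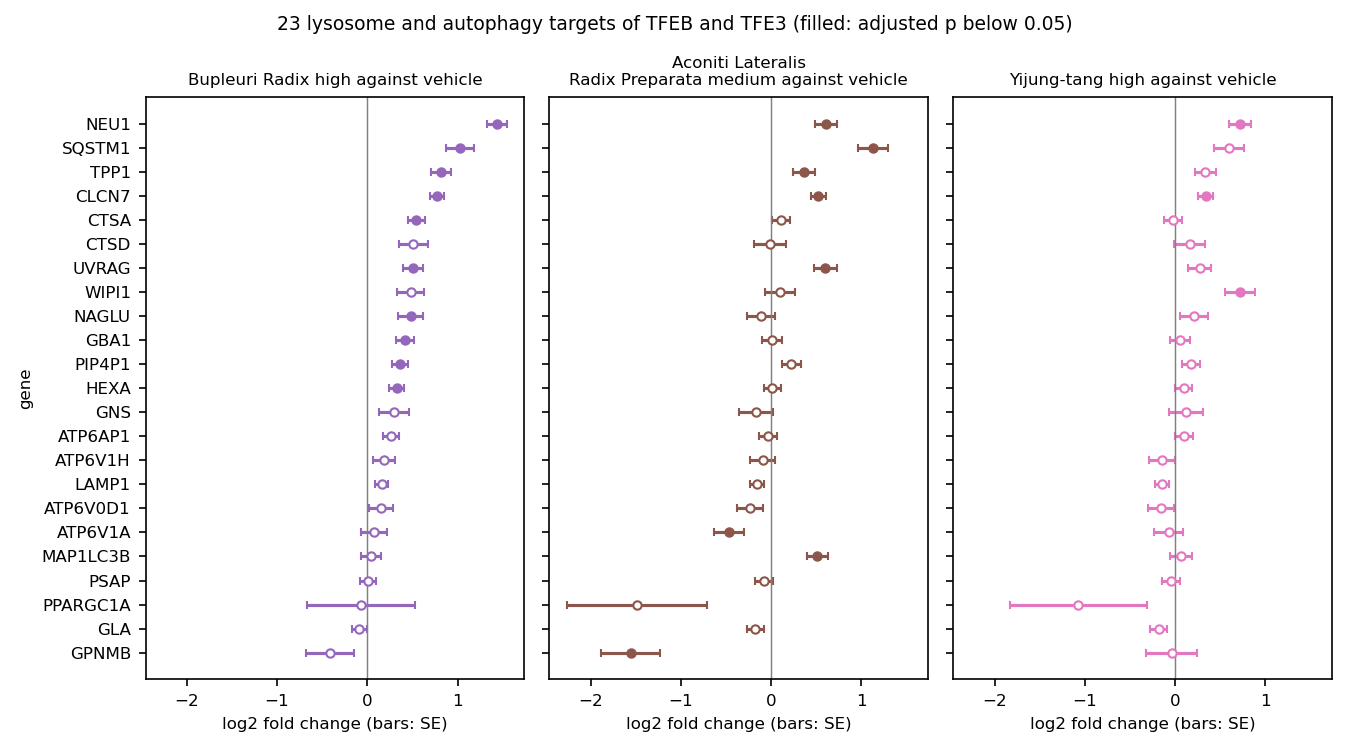
Log2 fold change (horizontal axes, points with standard error bars) of 23 of the lysosome and autophagy genes (rows) under Bupleuri Radix high, Aconiti Lateralis Radix Preparata medium and Yijung-tang high against vehicle; filled points have an adjusted p below 0.05. Filled points number 10 in the first panel, 8 in the second and 3 in the third, and NEU1 and CLCN7 are filled in each.

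Cell type markers and mitochondrial ribosomal RNA differed from vehicle in some of the same groups. The summed level of KRT8, KRT18, EPCAM and CDH1 was 4042 to 4261 CPM under Bupleuri Radix high, 3980 to 4224 CPM under Aconiti Lateralis Radix Preparata medium and 4403 to 4638 CPM under Yijung-tang high, against 6065 to 6333 CPM in vehicle. It was also low where RRAGD was not called, at 3610 to 3618 CPM under Coptidis Rhizoma high and 4091 to 4529 CPM under Cimicifugae Rhizoma high. KRT8 and KRT18 carry this sum, with medians of 3240 and 2344 CPM over all libraries, against 5.16 for EPCAM and 31.4 for CDH1. The summed level of 7 markers of other cell types was 55.6 to 60.5 CPM under Bupleuri Radix high, 37.1 to 38.4 CPM under Aconiti Lateralis Radix Preparata medium and 40.7 to 46.2 CPM under Yijung-tang high, against 44.3 to 47.9 CPM in vehicle, which Yijung-tang high overlapped. COL1A1, CD68 and ACTA2 carry that sum, with medians of 31.4, 8.32 and 7.36 CPM over all libraries. Mitochondrial ribosomal RNA was 3.09% to 3.24% of the counts under Bupleuri Radix high, 2.15% to 2.64% under Aconiti Lateralis Radix Preparata medium and 2.64% to 3.12% under Yijung-tang high, against 2.24% to 2.43% in vehicle, which Aconiti Lateralis Radix Preparata medium overlapped. Their part in the differences was not tested.

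The genes most alike in pattern to each member were taken over the 25 group means of log2 CPM, among genes averaging at least 5 CPM, a floor that RRAGD and TFEB do not reach. This is a description, in which groups share library sets and a few high groups weigh most. The gene most like RRAGD was FLCN (Pearson r = 0.963), before HS1BP3 (0.937) and GNPDA1 (0.937). The genes most like FLCN were GNPDA1 (0.947), HS1BP3 (0.942) and STX3 (0.932), and those most like RRAGC included GNPDA1 (0.937) and RAB29 (0.919). FNIP1 was most like TSC1 (0.934), HMGXB3 (0.934) and CTNS, the lysosomal cystine exporter (0.922). TFE3 was most like IRF2BPL (0.932), and TFEB like LAMB2 (0.897) and CCDC80 (0.894). Among the members RRAGC followed RRAGD (0.908) and FLCN (0.917), FNIP1 followed FLCN (0.886), and TFEB ran against FNIP1 (-0.794) and RRAGD (-0.702). The 4 libraries that stand apart enter these means, with FNIP1 low in each and TFEB high in 3 of them. Without them TFEB and FNIP1 stood at -0.746, TFEB and RRAGD at -0.742, FNIP1 and FLCN at 0.973, and FNIP1 and TSC1 at 0.840 in place of 0.934. The gene most like FNIP2, PPM1H, reached 0.806, and those most like RRAGA and RRAGB, COG8 and SLC25A13, reached 0.764 and 0.740. TFE3 and RRAGD were weakly related (0.292).

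Banhasasim-tang had 1 library a dose and no test. RRAGD had 2.02, 1.87 and 2.49 CPM at the low, medium and high dose, and the high dose stood at 1.29 times the vehicle mean. TFE3 had 94.6, 103 and 115 CPM, FNIP1 29.3, 27.5 and 34.7 CPM and MITF 11.9, 11.9 and 14.7 CPM over the same doses. The high dose library also had 15.2% mitochondrial ribosomal RNA among its counts, against 2.24% to 2.43% in vehicle.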

How the data were processed

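RNA was sequenced from A549 cells after 24 h. The authors deposited expected counts, unscaled, with 1 row per gene. Leaving out genes that are 0 in all libraries, 84.4% of the values are whole numbers. Per the submitters' processing notes, the tools were RSEM 1.3.3, STAR 2.7.3a, Trim Galore 0.6.5 and FastQC 0.11.9, with hg38 and GRCh38 as builds. The annotation release and the strand setting of the counting are not given in the sources used here. Libraries were made with a kit that keeps strand, per the labels' protocols. The table holds 59 columns of this series, matched by the code in each sample description, and 210 others that were not used. Symbols were found for 56558 gene IDs, and gene positions are those of GENCODE 29 on GRCh38. The sample labels give the vehicle as 0.1% DMSO and the series text gives another value.

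Expected counts were rounded to whole numbers and tested in edgeR 4.0.16 (R 4.3.3) by quasi-likelihood, with TMM scaling, filterByExpr (minimum count 10, minimum total 15), 25 group means and 34 residual degrees of freedom, after the script was checked on simulated data. P-values were adjusted within each of 31 comparisons (21 doses against vehicle, 7 high against low doses, 3 between both extracts of a set) and in 1 added after the levels were seen. The labels do not say whether replicates were separate cultures, so p-values measure only the spread between these libraries. RRAGD and TFEB have the lowest counts of the members, which limits their precision. No library pair was identical. Alternatives were RLE scaling, DESeq2 1.42.0, no filter on low counts, smaller fits, leaving out libraries, and the replicate number as a block. Pairing was checked by the correlation of same-numbered libraries: in Citri Unshius Pericarpium high against low all 3 pairs lay over 0.1 (0.177 to 0.543), and the block left its 1 call in place; in the other comparisons the numbers are only shared.

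All 10 members are named. Of the other lists, the genes named are called ones, at most 4 per list and comparison by size of change; the genes most like a member are the 3 with the highest Pearson r among genes averaging at least 5 CPM. Members and lists were chosen with earlier results of these data known. Values of 1 gene of the lysosome list are not reported here.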

Additional observations from a re-analysis of the deposited data

Results flagged for a closer look

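The change from the low to the high dose differed between both extracts of library set 13 for 3 of the 10 genes, by a test of the difference itself. RRAGC changed by 0.81 more on the log2 scale under Bupleuri Radix than under Aconiti Lateralis Radix Preparata, RRAGD by 1.24 more and FLCN by 0.79 more. The doses differ, 7.6 to 190 µg/mL for Bupleuri Radix and 20 to 500 µg/mL for Aconiti Lateralis Radix Preparata, and Aconiti Lateralis Radix Preparata had its highest levels of the 3 genes at the medium dose, which this comparison leaves out.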

How the results depend on the processing

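Of 30 calls of members over all comparisons, 14 held under each of the 10 to 18 alternatives run for them and 0 turned round; RLE scaling changed no call. Counts of members called moved as follows. With no filter on low counts, 0 in place of 2 were called for Aconiti Lateralis Radix Preparata high, 0 in place of 1 for Coptidis Rhizoma high, 1 in place of 2 for Yijung-tang high, 0 in place of 2 for Yijung-tang high against low, 0 in place of 1 for Citri Unshius Pericarpium high against low, and 1 in place of 0 between Cimicifugae Rhizoma and Citri Unshius Pericarpium. DESeq2 called 1 in place of 0 for Coptidis Rhizoma medium, Citri Unshius Pericarpium high, and Aconiti Lateralis Radix Preparata high against low, 2 in place of 1 for Citri Unshius Pericarpium high against low, and 2 in place of 0 between Cimicifugae Rhizoma and Citri Unshius Pericarpium. A fit of only the libraries compared, with vehicle where used, called 2 for each dose of Coptidis Rhizoma, RRAGA lower and TFE3 higher. Over all genes it called 2267, 4340 and 7157 from the low to the high dose, in place of 83, 607 and 2332. With all genes called in brackets, the same kind of fit called 1 for Coptidis Rhizoma high against low (4342) and 1 for Bupleuri Radix low (2001). It called 4 for Aconiti Lateralis Radix Preparata high (3881), 3 for its high against low dose (2116) and 6 for its medium against high dose (4567). Between Bupleuri Radix and Aconiti Lateralis Radix Preparata it called 5 (650). It called 4 for Yijung-tang high (3093), 4 for its high against low dose (692), and 0 for Citri Unshius Pericarpium high against low (0). Without the 4 libraries that stand apart the counts were 4 for Aconiti Lateralis Radix Preparata high against low, 6 for its medium against high dose, 5 between Bupleuri Radix and Aconiti Lateralis Radix Preparata, 1 for Citri Unshius Pericarpium medium, 1 for Coptidis Rhizoma medium and 0 for Citri Unshius Pericarpium high against low. The replicate block gave 1 in place of 0, RRAGD, for Aconiti Lateralis Radix Preparata high against low, where the numbers are not shown to pair the libraries, and changed no other call.

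Leaving out each library in turn gave 4 to 5 members for Bupleuri Radix high and 3 to 4 for its high against low dose, 3 to 6 for Aconiti Lateralis Radix Preparata medium, 0 to 0 for its high dose, 0 to 2 for Yijung-tang high and 0 to 1 for its high against low dose, 0 to 1 for Coptidis Rhizoma high and for Citri Unshius Pericarpium medium, 0 to 3 for Citri Unshius Pericarpium high, for its high against low dose and between it and Cimicifugae Rhizoma, and 2 to 3 between Bupleuri Radix and Aconiti Lateralis Radix Preparata. A group left with 1 library was assumed to vary like the others. The count over all genes moved by over 1.5 times under at least 1 alternative in all 32 comparisons: without the 4 libraries it was 2623 in place of 624 for Bupleuri Radix high, 6018 in place of 3253 for Aconiti Lateralis Radix Preparata medium, 2746 in place of 864 for its high dose, 1670 in place of 254 for Yijung-tang high and 5116 in place of 2332 for Coptidis Rhizoma high. Without those 4 libraries the count fell to 266 in place of 821 for Citri Unshius Pericarpium high. It fell to 156 in place of 657 for the high against low dose of that extract, and to 26 in place of 1304 between it and Cimicifugae Rhizoma. Fits of only the libraries compared, with vehicle where used, called 0 genes in each of these. The count rose for Citri Unshius Pericarpium medium, 515 in place of 0, and Cimicifugae Rhizoma medium, 802 in place of 5. The causes were not tested. Depth limits RRAGD and TFEB, whose lowest libraries held 32 and 51 counts.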
